A study of Mus musculus with 22 samples.

Results

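The regions described here are stretches of the mouse genome where H3K27ac peaks appeared or disappeared between 12 h and 24 h of β-estradiol in G1E-ER4 cells. The peaks of the 4 lists from these times (2 replicates each) were merged where they touched, which gave 21410 regions. A region was gained when it overlapped a peak in both 24 h lists and in neither 12 h list, and lost in the reverse case. By this rule 337 regions were gained (1.57% of the merged regions) and 561 were lost (2.62%). The 10 H3K27ac lists of the series merged into 24299 regions.

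G1E-ER4 (G1ER) is a single clonal line derived from Gata1-null mouse erythroid progenitors, and its GATA1 is supplied as a GATA1-ER fusion protein that becomes active when estradiol is added. Every sample therefore lacked endogenous GATA1 and carried the fusion, and all cells were grown with stem cell factor and erythropoietin. The compared groups differed in the time since β-estradiol was added, 12 h or 24 h, and untreated cells (0 h) and cells at 2 and 6 h served as the earlier history. The series of 22 lists also held 10 lists of H3K4me3 at the same times and 1 CTCF list each at 0 and 24 h, which had no replicate. The study's paper describes 2 independent ChIP-seq experiments across the time points of this line. Neither it nor the labels say how the cultures were separated. The p-values therefore measure the spread between these samples, part of which may be technical.

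H3K27ac is acetylation of histone H3 at lysine 27, deposited mainly by the acetyltransferases p300 and CBP and found at active enhancers and active promoters. H3K4me3 marks promoters. GATA1 binds GATA motifs, and in erythroid precursors it activates globin, heme synthesis and red cell membrane genes while it represses genes of the progenitor state such as Gata2 and Kit.

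The central 300 bp of 7 regions are shown because the later results return to them, with each GATA motif (AGATAA or AGATAG or TGATAA or TGATAG, on either strand) in capitals. The sequences are RefSeq GRCm38, and windows that overlapped an annotated exon were left out. Among the 10 highest-ranked gained regions, Popdc2 and Sertad1 were the ones with a motif in such a window, and Tmbim6, Prss39 and Cop1 were the first of the highest-ranked lost regions with one. Zfp687 stands for gained regions without an earlier H3K27ac peak. The region near Entpd4 lengthened most among regions listed throughout, and it and the Zfp687 region were chosen after their values were seen.
Popdc2, gained, chr16:38371331-38371630, plus strand: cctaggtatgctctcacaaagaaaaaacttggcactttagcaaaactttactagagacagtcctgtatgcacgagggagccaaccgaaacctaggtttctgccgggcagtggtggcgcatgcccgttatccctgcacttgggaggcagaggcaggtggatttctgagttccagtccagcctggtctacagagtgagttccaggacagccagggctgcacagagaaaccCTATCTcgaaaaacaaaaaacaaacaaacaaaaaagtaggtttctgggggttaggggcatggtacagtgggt
Sertad1, gained, chr7:27481888-27482187, plus strand: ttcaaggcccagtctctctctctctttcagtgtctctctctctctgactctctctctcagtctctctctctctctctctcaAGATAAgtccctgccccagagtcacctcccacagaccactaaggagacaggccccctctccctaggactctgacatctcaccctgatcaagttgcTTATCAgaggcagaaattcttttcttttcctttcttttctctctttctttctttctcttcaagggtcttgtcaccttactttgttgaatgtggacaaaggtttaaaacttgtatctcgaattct
Zfp687, gained, chr3:95025125-95025424, plus strand: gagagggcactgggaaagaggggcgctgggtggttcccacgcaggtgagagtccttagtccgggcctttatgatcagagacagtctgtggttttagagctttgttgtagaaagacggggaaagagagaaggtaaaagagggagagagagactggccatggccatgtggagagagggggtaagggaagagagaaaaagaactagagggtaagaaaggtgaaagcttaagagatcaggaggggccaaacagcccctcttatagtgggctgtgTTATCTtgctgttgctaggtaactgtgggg
Tmbim6, lost, chr15:99394309-99394608, plus strand: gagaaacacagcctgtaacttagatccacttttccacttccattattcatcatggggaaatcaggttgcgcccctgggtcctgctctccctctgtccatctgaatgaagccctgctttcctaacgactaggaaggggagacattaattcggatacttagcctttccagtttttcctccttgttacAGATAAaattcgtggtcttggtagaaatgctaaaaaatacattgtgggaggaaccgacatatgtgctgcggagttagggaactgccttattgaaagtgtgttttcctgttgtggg
Prss39, lost, chr1:34490109-34490408, plus strand: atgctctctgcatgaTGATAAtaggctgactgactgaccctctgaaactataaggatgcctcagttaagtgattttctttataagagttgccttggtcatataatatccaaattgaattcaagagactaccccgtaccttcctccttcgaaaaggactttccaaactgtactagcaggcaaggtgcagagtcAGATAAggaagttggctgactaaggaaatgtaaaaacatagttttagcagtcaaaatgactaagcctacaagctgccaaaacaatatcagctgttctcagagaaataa
Cop1, lost, chr1:159238083-159238382, plus strand: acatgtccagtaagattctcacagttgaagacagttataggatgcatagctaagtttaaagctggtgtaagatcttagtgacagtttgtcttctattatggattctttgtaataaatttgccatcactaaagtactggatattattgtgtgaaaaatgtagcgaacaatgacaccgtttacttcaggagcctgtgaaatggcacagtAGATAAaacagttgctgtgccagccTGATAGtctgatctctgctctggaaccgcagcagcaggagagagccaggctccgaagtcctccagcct
Entpd4, longer, chr14:69320298-69320597, plus strand: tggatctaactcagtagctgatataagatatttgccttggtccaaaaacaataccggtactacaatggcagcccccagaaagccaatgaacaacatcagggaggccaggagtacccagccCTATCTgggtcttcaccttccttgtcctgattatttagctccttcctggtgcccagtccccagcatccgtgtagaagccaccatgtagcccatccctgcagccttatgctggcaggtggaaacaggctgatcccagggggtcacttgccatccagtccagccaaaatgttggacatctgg

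The 12 h lists held 18043 and 17998 peaks and the 24 h lists 17724 and 17247. Both 24 h lists were shorter than both 12 h lists, and the mean fell from 18020.5 ± 31.8 to 17485.5 ± 337 (SD, n = 2; two-sided exact permutation p = 0.333, the smallest that 2 lists against 2 can give). The second 24 h list also covered the least sequence, 43.9 Mb against 46.3 to 46.6 Mb in the other 3 lists. By the share of covered bases in common (Jaccard index), lists of the same time reached 0.753 at 12 h and 0.74 at 24 h, and lists of different times 0.725 to 0.729. Read counts are not part of the lists, and the depth behind each one is therefore unknown. Peak length and the deposited peak score were linked in a way that bears on every presence or absence below. The median score was 112 for peaks under 2 kb, the most numerous, 465 for peaks of 2 to 4 kb, 178 for peaks of 6 to 8 kb and 73.1 for peaks of 8 kb or more, and none of the 10 lists held a peak over 9 kb. Of 9565 protein-coding transcription start sites (TSSs) with an H3K4me3 peak within 2 kb in all 10 H3K4me3 lists, 421 (4.4%) had no H3K27ac peak within 2 kb in any of the 4 lists. The share was 18.5% (17 of 92) among the erythroid and related genes listed for this comparison.

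**Figure D1:**
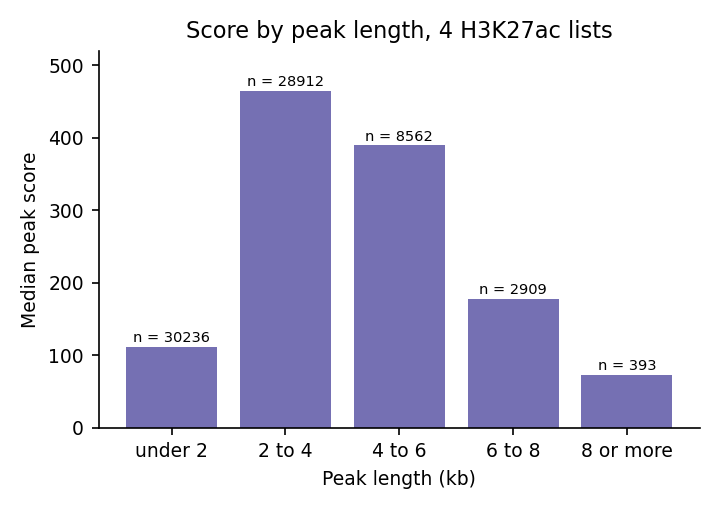
Median deposited peak score (y axis) of the H3K27ac peaks of the 12 h and 24 h lists, by peak length in kb (x axis), with the number of peaks above each bar. The median is 112 under 2 kb and falls from 465 at 2 to 4 kb to 73.1 at 8 kb or more.

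The labelled cell type was checked at the promoters of erythroid markers and of markers of other tissues. Klf1, Slc4a1 and Hba-a1 had an H3K27ac peak within 2 kb of the TSS in all 4 lists, and Tal1, Gfi1b, Epor, Tfrc, Nfe2 and Cbfa2t3 had one in none. H3K4me3 peaks were present at Epor and Tfrc in all 10 H3K4me3 lists, at Gfi1b, Nfe2 and Cbfa2t3 in 9, and at Tal1 in none. Of the markers of liver, muscle, nerve, lymphoid and skin cells, 8 of 10 had no H3K27ac peak in any of the 4 lists. The exceptions were Apoa2, whose TSS lies within 4 kb of that of Tomm40l, and Gfap, each with a peak in all 4. Among the erythroid markers, the Hba-a1 TSS likewise lies within 4 kb of that of Hbq1b. Most of these erythroid markers were thus without an H3K27ac peak at both times although all of them except Tal1 carried H3K4me3. The absence of a peak is reported below as that and not as the absence of acetylation, and the cause was not tested.

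Most merged regions did not change class. A total of 14457 (67.5%) had a peak in all 4 lists and are called kept. The remaining 6055 regions outside the kept, gained and lost classes had a peak in some lists of one or both times. Just outside the rule for gain, 733 regions had a peak in both 24 h lists and 1 of the 12 h lists, and 1500 had a peak in 1 of the 24 h lists alone. Just outside the rule for loss, 1110 had a peak in both 12 h lists and 1 of the 24 h lists, and 1745 had a peak in 1 of the 12 h lists alone. The other 967 had 1 list at each time. The median score was 68.6 for gained and 74.6 for lost regions, 77.5 for the single 12 h peak beside 2 at 24 h, and 74.7 for the single 24 h peak beside 2 at 12 h. Kept regions, which were longer, had a median score of 332, and the lowest deposited score was 50. Most gained and lost regions therefore scored low in the lists that did hold them, in the same range as regions that the rule left out by 1 list.

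Losses outnumbered gains at 1.66 to 1. The ratio was 1.12 (445 against 398) with equally long lists of the best-scoring peaks. Leaving out a list loosens the rule and raises both counts, to 1457 lost and 707 gained without the first 12 h list, 1444 and 702 without the second, and 1211 and 1007 without the first 24 h list. Without the second 24 h list, the shortest of the 4, gains outnumbered losses (1190 against 1023). Leaving out a 24 h list loosens the rule more for gain, since a peak in 1 list at 24 h is then enough. Leaving out a 12 h list loosens it more for loss. These counts therefore cannot tell whether the direction rested on 1 list. Under the same rule the other steps gave 389 gained and 390 lost regions from 0 to 2 h, 404 and 238 from 2 to 6 h, and 273 and 341 from 6 to 12 h. The step from 12 to 24 h had the most losses of the 4 steps, and it shares its 12 h lists with the step before it.

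Gained and lost regions were shorter and more often distal than kept regions, as were the 6055 regions outside the 3 classes. The latter had a median width of 1076 bp, 8.14% of them held a TSS, and 70.5% had no H3K4me3 peak in any list. The median width was 1453 bp for gained, 1293 bp for lost and 2888 bp for kept regions. A protein-coding TSS lay inside 23 gained regions (6.82%, 95% Wilson interval 4.59 to 10.0%), 35 lost regions (6.24%, 4.52 to 8.55%) and 51.1% of kept regions. The intervals cover counting error over regions only. Introns held 40.7% of gained and 38.0% of lost regions, and space between genes held 32.3% and 42.1%. The nearest TSS was within 50 kb for 79.2% of gained and 63.5% of lost regions. The median distance to it was 20271 bp for gained and 27837 bp for lost regions. No H3K4me3 list had a peak at 74.8% of gained and 71.5% of lost regions, against 21.4% of kept regions. The score changed this picture. With the lower-scoring peaks of the pooled lists removed (a minimum at the median score), 91 regions were gained and 251 lost, and 40.7% and 25.5% of them held a TSS.

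Gained and lost regions differed in their presence in the earlier lists, for peaks of all scores. A peak in at least 1 of the 6 lists at 0, 2 and 6 h was present at 192 gained regions (57.0%, 51.6 to 62.2%) and at 538 lost regions (95.9%, 93.9 to 97.3%). Both lists of an earlier time held a peak at 26.1% of gained and 78.6% of lost regions. The minimum at the median score was set on the 12 h and 24 h lists, while the earlier lists kept all peaks. An earlier peak was then present at 100% of 91 gained and 99.2% of 251 lost regions. These regions can hold a lower-scoring peak at the other time, and 99.7% of kept regions also had an earlier peak. This setting therefore cannot show whether the difference holds at higher scores. Per list, 22.0 to 30.3% of gained and 64.7 to 73.4% of lost regions had a peak at 0 to 6 h. Of the gained regions, 145 (43.0%) had a peak in no earlier list and 12 in all 6. Of the lost regions, 23 had a peak in no earlier list and 187 (33.3%) in all 6. With peaks of all scores, nearly all lost regions had thus been listed before 12 h, and the gained class was a mixture of regions first listed at 24 h and regions that had come and gone. Of the 6055 regions outside the 3 classes, 73.4% were in an earlier list.

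**Figure D2:**
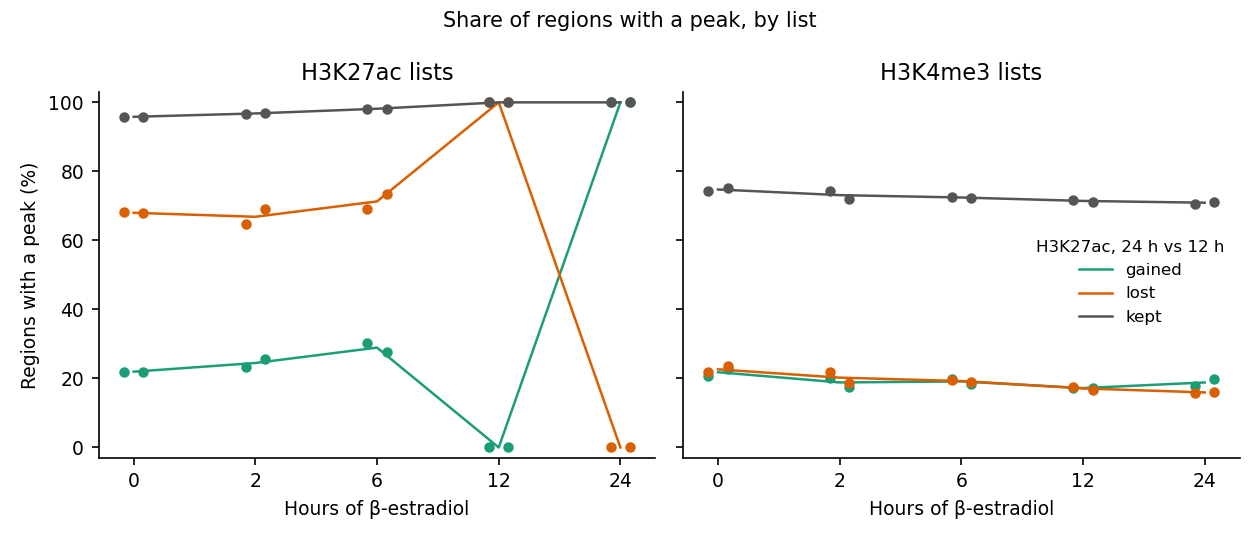
Share of gained (n = 337), lost (n = 561) and kept (n = 14457) regions with a peak in each H3K27ac list (left) and each H3K4me3 list (right), against hours of β-estradiol on an evenly spaced axis. Points are single lists and lines join the means of 2; values at 12 and 24 h on the left are fixed by the rule, while at 0 to 6 h lost regions sit at 64.7 to 73.4% and gained regions at 22.0 to 30.3%.

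H3K4me3 and CTCF were examined at the same regions. Between 15.9% and 23.5% of lost regions and 17.2% and 22.8% of gained regions had an H3K4me3 peak in a given list. No gained region gained H3K4me3 from 12 to 24 h by the same rule, and 2 lost regions (0.357%) lost it, near Bach1 and at Tpsab1. Among kept regions 0.304% gained and 0.505% lost H3K4me3, so these counts are near the level elsewhere. CTCF peaks at 24 h overlapped 23.4% of gained, 16.9% of lost and 37.1% of kept regions. CTCF at 24 h and not at 0 h was found at 18 gained (5.34%) and 15 lost regions (2.67%), in lists without replicates, against 8.79% of kept regions and 4.96% of the regions outside the 3 classes.

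The highest-ranked members were then examined. Each region was ranked by the lower of its score percentiles in the 2 lists that held it, where the percentile is taken within a list. The 10 highest gained regions had lower percentiles of 40.1 to 85.4. All 10 had H3K4me3 in all 10 H3K4me3 lists, 6 held a TSS, and 7 were at least 4 kb long. In 8 of them the H3K27ac peak was present in some of the earlier lists and absent in others.

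The region with the highest rank spanned the promoter of Cdk13 (chr13:17801503-17806686), a cyclin-dependent kinase of transcription elongation. Its peak was 5184 and 4950 bp long at 24 h, absent from both 12 h lists, and 4984 to 5422 bp long in 5 of the 6 earlier lists. At Stat5a (chr11:100858997-100863937), a transcription factor activated through the erythropoietin receptor, the peak measured 4941 and 4196 bp at 24 h. It was absent at 12 h and 4396 to 5857 bp long in all 6 earlier lists. These promoters had a peak before and after 12 h and differed from the rest of the course in the 12 h lists.

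Lamtor4 (chr5:138254483-138257222), a subunit of the Ragulator complex on lysosomes, had promoter peaks of 2740 and 2393 bp at 24 h, and it had been listed in 1 replicate each at 2 and 6 h. Downstream of the Popdc2 TSS (chr16:38369478-38373484), peaks of 3931 and 3929 bp were listed at 24 h, and both 2 h lists held a peak there. Beside Sertad1 (chr7:27480497-27483578), which encodes a CDK4-binding protein, peaks of 2850 and 2976 bp were listed at 24 h, and 1 replicate each at 2 and 6 h held one. The promoter of Sec14l1 (chr11:117111627-117117520) had 24 h peaks of 5524 and 5894 bp and no earlier H3K27ac peak, and it was the one region of the 10 without any. Adcy7, Nol4l, Map3k6 and Cirbp made up the rest, with scores of 219 to 406 at 24 h and a peak in 1 to 4 earlier lists.

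The 10 highest lost regions looked different. Their lower percentiles were 35.1 to 77.5, 5 of them had no H3K4me3 peak in any list, 3 held a TSS, and 6 had been listed in all 6 earlier lists. The contrast in H3K4me3 and TSSs held for these top ranks only. Over the whole classes, 74.8% of gained and 71.5% of lost regions had no H3K4me3 peak, and 6.82% and 6.24% held a TSS. A region 7301 bp from the TSS of Hemgn (chr4:46401350-46406205), which encodes the hematopoietic nuclear protein hemogen, had peaks of 4495 and 4646 bp at 12 h and none at 24 h. The 6 earlier lists held peaks of 3988 to 4894 bp there, and H3K4me3 was present in all 10 lists. A second lost region lay 1217 bp from the same TSS (chr4:46409243-46412289) and had also been listed in all 6 earlier lists. At Hemgn, a stretch that was listed in all 8 lists through 12 h was therefore without a peak in both 24 h lists at both places. The second region was named after its values were seen.

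Cop1, an E3 ubiquitin ligase, also contributed 2 regions. Its promoter (chr1:159230695-159235322) had peaks of 4465 and 4503 bp at 12 h, and a region 4255 bp away (chr1:159236581-159239884) had peaks of 3278 and 3288 bp. Both were absent at 24 h and in 1 list at 2 h, and present in the other 5 earlier lists. The promoters of Tmbim6 (chr15:99391477-99397440), an inhibitor of cell death, and Ywhaz (chr15:36789825-36797243), a 14-3-3 protein, were absent at 24 h after peaks of 3374 and 5767 bp and of 7400 and 6247 bp at 12 h. Tmbim6 was listed in 5 and Ywhaz in 1 of the 6 earlier lists. H3K4me3 was present in all 10 lists at these 3 promoters.

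The promoters of Ehbp1l1 (chr19:5722205-5730093) and Rnps1 (chr17:24412476-24419526), whose product belongs to the exon junction complex, were next among lost regions with a TSS. Their peaks were 7848 and 7774 bp and 6929 and 6947 bp long at 12 h, and both were present in all 6 earlier lists.

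Several distal regions among the 10 were listed in all 6 earlier lists. Near Prss39 (chr1:34487226-34493291), peaks of 4124 and 5899 bp at 12 h followed 6 earlier lists with 3148 to 5771 bp. A region 34513 bp from the TSS of Nsmaf (chr4:6413665-6419758), an adaptor of a tumor necrosis factor receptor, had 5958 and 4334 bp at 12 h. A region 6312 bp from Tlr13 (chrX:106135768-106136917), a receptor for bacterial RNA, had 996 and 1150 bp at 12 h and 865 to 1310 bp before. A region 27638 bp from Adipoq (chr16:23174174-23176935), the adiponectin gene, had 2646 and 2713 bp at 12 h and 1942 to 2867 bp before. Each of these 4 was listed in all 8 lists through 12 h and in neither at 24 h. Prss39, Nsmaf and Adipoq had no H3K4me3 peak in any list.

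**Figure D3:**
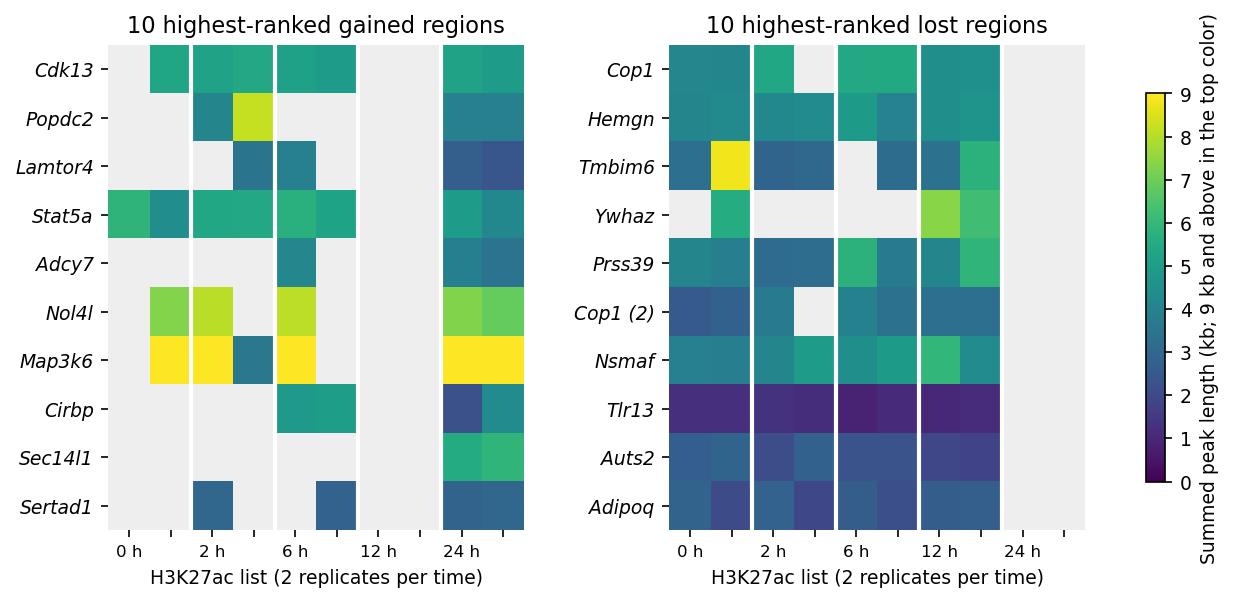
Summed length in kb (color) of the H3K27ac peaks touching the 10 highest-ranked gained (left) and lost (right) regions in each of the 10 H3K27ac lists (columns, 2 replicates per time); gray marks no peak, and regions are named by the nearest TSS. Gained regions come and go in earlier lists, whereas 6 of the 10 lost regions are filled in all lists through 12 h.

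Among gained regions without an earlier H3K27ac peak and without H3K4me3, the highest were distal and short. The region near Zfp687 (chr3:95024136-95026414), a zinc finger gene 8898 bp away, had scores of 147 and 134 at 24 h and lengths of 2279 and 2067 bp. Near Atg14 (chr14:47580584-47581929), which encodes a subunit of the autophagy-initiating lipid kinase complex, the scores were 132 and 125. In an intron of Uxs1 (chr1:43810285-43811824) they were 116 and 119, and near Gstt2 (chr10:75844788-75846709), a glutathione transferase gene, 139 and 105. CTCF at 24 h and not at 0 h overlapped the regions near Zfp687 and Gstt2. Intronic regions of Iqsec1, Fryl and Usp7 followed, with 1 in an intron of Fgf2 whose nearest TSS was that of Nudt6, at scores of 90.7 to 130. These 8 regions, chosen after their values were seen, were listed for the first time at 24 h in both replicates, at scores below the median of kept regions.

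The 12 gained regions that were listed in all 6 earlier lists form the opposite case, absent at 12 h alone. They were also singled out after their values were seen. Besides Stat5a they included the promoters of Ttc39a (chr4:109403798-109409004) and Sept9 (chr11:117329748-117336739), a septin gene. At Ttc39a the peak measured 5207 and 3857 bp at 24 h and 4835 to 8907 bp at 0 to 6 h. At Sept9 it measured 6984 and 6934 bp at 24 h and 7010 to 7607 bp before, at scores of 89.6 to 156. The others were near Cct8l1, Il13, Pacsin2, Rapgef1, Daam1, Fhl2 and Metap2, and inside Rere and Rad51b. The region inside Rere lay 178166 bp from its nearest TSS, that of Slc45a1. The region inside Rad51b lay 379038 bp from that of Zfp36l1. At the reverse end, 23 lost regions were listed at 12 h and at no earlier time, at scores of 68.3 to 86.8 for the 5 highest, near Susd1, Ankrd36, Cbfa2t3, Gm12166 and Ap5m1.

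Genes were next examined by the lists of erythroid and related pathways. Of 139 listed genes, 7 (5.04%) had a gained region within 50 kb of the TSS, against 3.02% of all protein-coding genes, and 16 (11.5%) had a lost region, against 3.80%. Within 20 kb the counts were 4 (2.88%, all genes 1.3%) and 8 (5.76%, all genes 1.68%). The listed genes were chosen with earlier results of these data known. They were also more often marked, with H3K4me3 in all 10 lists at 92 of 139 TSSs against 9565 of 21866. No share among marked genes alone was computed, so these gaps may reflect the choice of genes. None of 14 heme synthesis genes had a gained or a lost region. Of the 20 genes induced by GATA1, none had a gained and 2 a lost region. Of 16 membrane skeleton genes, 1 had a gained region and none a lost one.

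Of 27 transcription factors of erythroid and stem cells, 3 had a gained and 5 a lost region. Bach1, a heme-regulated repressor of globin and heme oxygenase genes, had a lost region in an intron (chr16:87705135-87708484), 6190 bp from the TSS. Its peaks were 3024 and 3306 bp at 12 h, 2150 to 3076 bp at 2 and 6 h, and absent at 24 h, and the H3K4me3 peak there was lost at 24 h too. At Nfia, an intronic region 31137 bp from the TSS (chr4:97808745-97811112) had peaks of 1956 and 2325 bp at 12 h and a peak in all 6 earlier lists. A region 17630 bp from Tal1 (chr4:115037175-115038796), a core stem cell and erythroid factor, lay in an exon of the neighbouring gene Stil, with 1622 and 1241 bp at 12 h and a peak in 3 earlier lists. A Cbfa2t3 intron, named after its values were seen, (chr8:122683866-122690171) held peaks of 6214 and 6268 bp at 12 h and in no other list. On the gained side, a short region 49697 bp from Klf3 was listed at 24 h alone, and the Stat5a promoter region lay 8273 bp from the TSS of Stat5b.

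Genes repressed by GATA1 had 1 gained and 2 lost regions among 16 genes. Lost regions lay 31865 bp from the TSS of Gata2, in an intron of Dnajb8 (chr6:88225756-88228084), and 45176 bp from that of Myc. The region near Gata2, whose product is the factor GATA1 replaces, measured 1625 and 2329 bp at 12 h and 862 to 2611 bp in all 6 earlier lists. The region near Myc (chr15:62031098-62033149), which drives proliferation, measured 1536 and 2052 bp at 12 h and was listed in 4 of the 6 earlier lists. A gained region 29856 bp from the TSS of Myb (chr10:21190840-21199335), a progenitor transcription factor, had peaks of 7792 and 8327 bp at 24 h with scores of 115 and 59.6, no earlier H3K27ac peak and H3K4me3 in all 10 lists. Peaks of that length had low scores throughout the lists, as given above.

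Mast cell and myeloid genes had 3 lost and no gained regions among 15. A region at the promoter of Tpsab1 (chr17:25342918-25345922), which encodes a mast cell tryptase, and 20383 bp from Tpsb2, had peaks of 3005 and 2648 bp at 12 h and none at 24 h, and it lost H3K4me3 in the same step. A region 43316 bp from Fcer1a, a subunit of the IgE receptor, lay beside Olfr418 and had 594 and 550 bp at 12 h. The third gene was Gata2. Of 13 megakaryocyte genes, Pf4 and Ppbp shared 1 lost region at the promoter of the neighbouring Cxcl3 (chr5:90784976-90786390), with 1415 and 1109 bp at 12 h and a peak in all 6 earlier lists.

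Iron genes had 2 lost regions of 13 and none gained. That of Tfrc (chr16:32597806-32598546), the transferrin receptor gene, was 561 and 689 bp long at 12 h and was listed in 3 earlier lists. That of Ftl1 (chr7:45485582-45490574), 25698 bp from the ferritin light chain TSS, held the TSS of Dhdh and measured 4668 and 4982 bp. Among genes of survival and organelle clearance, Sqstm1, an autophagy receptor, had a gained region 4475 bp and a lost region 48134 bp away, and Ube2o a lost region. Among cell cycle genes, Cdkn1a, an inhibitor of cyclin-dependent kinases, had a gained region 39926 bp away next to Srsf3, and E2f4 a lost one at the promoter of Elmo3. Rhd, a blood group gene, had a lost region of 628 and 978 bp at 12 h, and Add1, which encodes the membrane skeleton protein adducin, a gained region of 1746 and 1443 bp at 24 h.

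Gained and lost regions were next compared for their closeness. Within 50 kb, 15 gained regions had a lost neighbour and 22 another gained region, and 37 lost regions had another lost region. Of all genes, 26 had a gained and a lost region within 50 kb of the TSS, which was 3.94% of genes with a gained and 3.14% of genes with a lost region. Both shares are close to those of all protein-coding genes given above, 3.80% with a lost and 3.02% with a gained region. For 7 genes both kinds had that gene's TSS as the nearest one: Angptl1, Eng, Igf2r, Ldlrad1, Nek6, Nomo1 and Slc25a44. In Igf2r, the receptor gene for insulin-like growth factor 2, the lost region (chr17:12740817-12743101) and the gained region (chr17:12744190-12747007) were close neighbours in introns, and 1 list at 2 h held a single peak of 5540 bp over both. At Eng, a hematopoietic and endothelial receptor gene, the gained region (chr2:32657375-32660650) had 3098 and 3197 bp at 24 h and no earlier peak, and the lost region (chr2:32637888-32638630) had 656 and 618 bp at 12 h.

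Length was compared at regions that had a peak in all 10 H3K27ac lists, which the rule for gain and loss leaves out by construction. The summed length of the peaks touching a region was tested by limma on the log2 scale over 13220 regions, with a mean for each of the 5 times. At a Benjamini-Hochberg adjusted p below 0.05, 7 regions were longer at 24 h than at 12 h (0.0530% of regions tested) and 37 were shorter (0.280%). Of the 37 shorter regions, 29 held no TSS and 15 had no H3K4me3 peak in any list. Of all 13220 regions tested, 2292 (17.3%) had no such peak. Of the 7 longer regions, 5 (71.4%) held a TSS. Of all regions tested, 54.9% held one, against 21.6% of the shorter regions. The calls rested on the spread shared by all 10 lists, since none passed when the 4 lists were fitted alone, where 349 regions were longer and 728 shorter at an unadjusted p below 0.05. Without the first or the second 12 h list, 1 region was longer in either case, and 4 and 7 were shorter. Without the first 24 h list, 7 were longer and 104 shorter, and without the second, 11 and 35.

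The largest lengthening was in a region between genes, 14026 bp from Entpd4 and 32636 bp from Slc25a37 (chr14:69317748-69323148). Slc25a37 encodes mitoferrin-1, the mitochondrial iron importer of erythroid cells, and was the one listed gene within 50 kb of a longer region, against 0.128% of all protein-coding genes. The peak went from 1203 and 1199 bp to 5367 and 4483 bp, a log2 difference of 2.03 ± 0.21 (SE; limma adjusted p = 0.0101, 0.144 in the fit to 4 lists). It had been 933 to 1231 bp at 0 and 2 h and 1775 and 2513 bp at 6 h, and no H3K4me3 list had a peak there.

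At the promoter of Slc46a1 (chr11:78463359-78466451), a folate and heme transporter gene, the length went from 1205 and 1292 bp to 2835 and 2426 bp (log2 difference 1.07 ± 0.14, limma adjusted p = 0.0275). All earlier lists had 974 to 1243 bp. The promoter of Pcgf3 (chr5:108460396-108468275), a Polycomb group RING finger gene, went from 3131 and 3714 bp to 7728 and 7335 bp (1.14 ± 0.15, limma adjusted p = 0.027). At Slc46a1 and Pcgf3, the 24 h lists were above all 8 earlier lists. The same held near Entpd4 and, by small margins, at the promoters of Arrdc2 and Sfxn2 described next.

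Some longer regions, among them the one near Entpd4, were shorter at 12 h than at an earlier time. The Arrdc2 promoter (chr8:70838055-70842488) went from 1651 and 1588 bp to 4347 and 4076 bp (1.38 ± 0.09, limma adjusted p = 0.00151), and it had been 3687 to 4070 bp in the 6 earlier lists. A region in Homer1 (chr13:93339542-93345042) went from 2401 and 2117 bp to 4878 and 5462 bp, but was already 5369 and 5352 bp at 6 h. The promoter of Sfxn2, a mitochondrial sideroflexin gene, went from 1106 and 1073 bp to 2195 and 1929 bp after 1532 to 1843 bp in the 6 earlier lists, and was named after its values were seen. At Arrdc2, Homer1 and Sfxn2 the change from 12 to 24 h began from 12 h values below those of at least 1 earlier time.

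At the 5 most shortened regions, both 24 h lists lay below all 8 earlier lists. In an intron of Rbfox2, which encodes a splicing factor, the length was 3729 to 3983 bp at 0 to 6 h, 3272 and 3551 bp at 12 h, and 1068 and 906 bp at 24 h. The log2 difference was -1.79 ± 0.11 (SE; limma adjusted p = 0.00141, 0.144 in the fit to 4 lists). In an exon of Cep290 (chr10:100498138-100500205), a gene of the primary cilium, it went from 1929 and 1934 bp to 726 and 637 bp (-1.51 ± 0.14, limma adjusted p = 0.00498). Regions 49309 bp from Nat1 and 85866 bp from Rgs2, a regulator of G protein signaling, and a region in an intron of Cpne5 were at 552 to 765 bp at 24 h and 1512 to 2228 bp at 12 h. No H3K4me3 list had a peak at these 5 regions.

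A further shorter region lay 69378 bp from the TSS of Kit (chr5:75503094-75505577), the stem cell factor receptor gene, and was named after its values were seen. The untreated cells had 4812 and 3767 bp, the 2 h lists 3264 and 3330 bp and the 6 h lists 3718 and 3655 bp. The length then was 2258 and 2484 bp at 12 h and 1063 and 1064 bp at 24 h. The difference from 12 to 24 h was -1.16 ± 0.13 (SE; limma adjusted p = 0.0109, 0.187 in the fit to 4 lists), and the 12 h values also lay below all earlier ones. No listed gene had a shorter region within 50 kb, against 0.320% of all protein-coding genes.

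The other shorter regions named here were chosen after their values were seen. A region 3338 bp from Prss34, a mast cell protease gene, went from 2067 and 2488 bp to 1066 and 1236 bp (-0.98 ± 0.13, limma adjusted p = 0.0263). The promoter of Cd200r3 went from 5083 and 4845 bp to 2177 and 2569 bp (-1.07 ± 0.15, limma adjusted p = 0.033), and that of the homeobox gene Hoxc8 from 3425 and 3181 bp to 2051 and 1810 bp (-0.78 ± 0.10, limma adjusted p = 0.0237). A region 126387 bp from Itga4, an integrin gene, went from 4505 and 4651 bp to 2925 and 3138 bp. In these 4 regions the 24 h values lay below those of all earlier lists. Not every called region did so. The Qsox2 promoter was 1661 to 2210 bp at 0 to 6 h, 4351 and 3958 bp at 12 h, and 1612 and 1852 bp at 24 h. The Mfsd3 promoter was 7509 and 7444 bp at 0 h and 2937 to 3480 bp at 2 and 6 h. It was 7530 and 7430 bp at 12 h and 3654 and 3482 bp at 24 h.

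**Figure D4:**
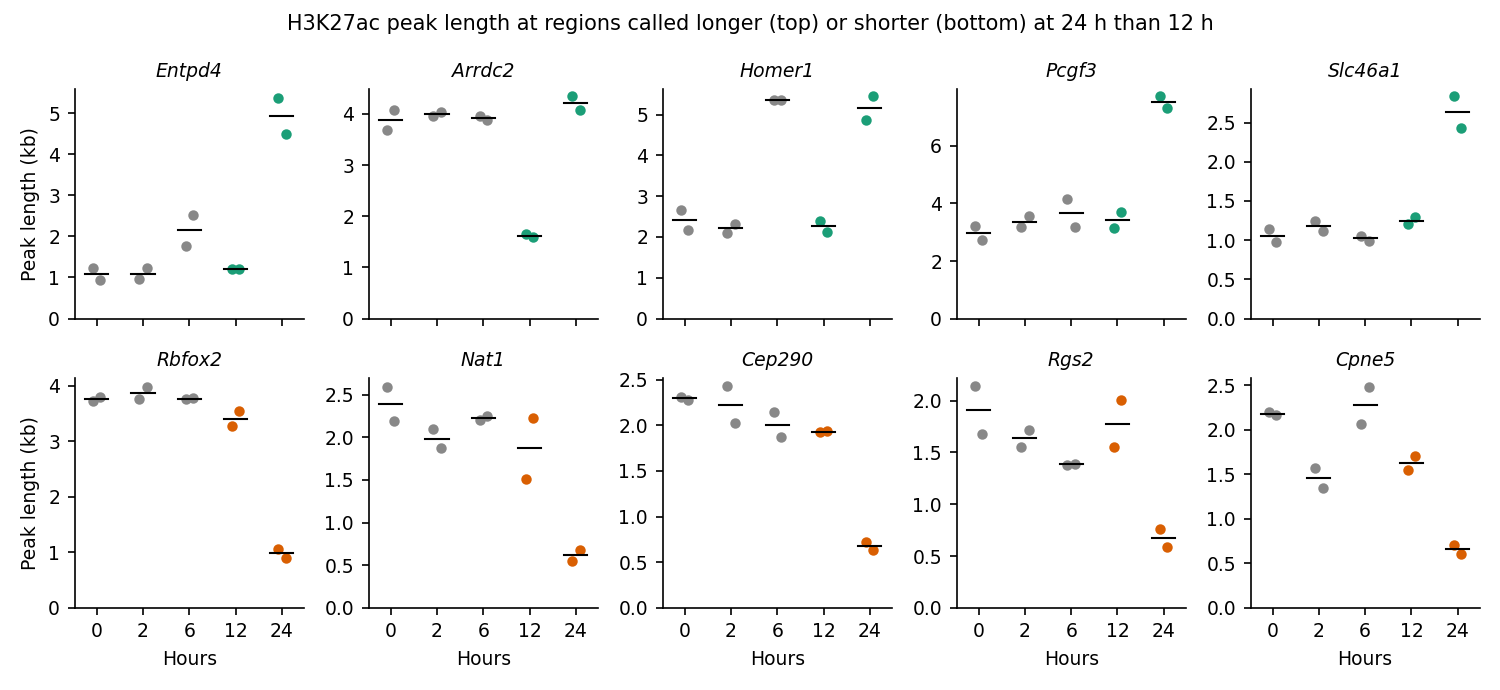
Summed H3K27ac peak length in kb (y axis, separate scales from 0) in each list against hours of β-estradiol, for the 5 regions with the largest called lengthening (top) and shortening (bottom) from 12 h to 24 h, named by the nearest TSS. Points are lists, colored at 12 and 24 h, and black lines are means of 2; at Entpd4 the points rise from 1203 and 1199 bp to 5367 and 4483 bp, and at Rbfox2 they fall from 3272 and 3551 bp to 1068 and 906 bp.

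GATA motifs were counted in 500 bp windows at the centers of regions without a TSS within 2 kb. At least 1 motif was present in 73.5% of 302 gained windows (95% Wilson interval 68.3 to 78.2%), 71.1% of 508 lost windows (67.0 to 74.8%), 68.0% of 6855 kept windows (66.9 to 69.1%) and 70.0% of all 13059 windows. Windows 10 kb beyond the centers held one in 61.0%, at a mean GC content of 44.5%. The reversed letters (the same motifs written backwards) were present in 56.3% of gained, 52.0% of lost, 48.2% of kept and 55.3% of flanking windows. Reversed letters such as GATAGA can overlap a motif and are not independent of it. The gained and lost windows therefore held the motif about as often as kept windows. Gained regions with no earlier peak had it in 82.7% of 139 windows (75.6 to 88.1%), and those with an earlier peak in 65.6% of 163 (58.1 to 72.5%). Lost regions listed in all 6 earlier lists had it in 76.2% (69.3 to 81.9%), and kept regions without H3K4me3 in 77.2% (75.7 to 78.7%). No test was made between these sets. In 1000 bp windows the GATA share was 96.4% (91.9 to 98.5%) for gained regions with no earlier peak. It was 93.3% (88.3 to 96.2%) for those with an earlier peak, with overlapping intervals. Of the displayed sequences, those of Popdc2, Zfp687, Tmbim6 and Entpd4 hold 1 match each and the other 3 hold 2.

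Other motifs were searched in the same windows. ETS letters (GGAAGT) were present in 27.2% of gained (22.4 to 32.4%), 37.0% of lost (32.9 to 41.3%) and 32.5% of kept windows. In 1000 bp windows the ETS shares of gained and lost regions were 50.7% (45.1 to 56.3%) and 54.9% (50.6 to 59.2%), with overlapping intervals. For an E-box (CAGCTG or CAGATG) the shares were 51.7%, 50.2% and 49.5%, for RUNX letters (TGTGGT) 36.8%, 32.9% and 34.5%, for AP-1 letters (TGANTCA) 17.2%, 16.3% and 16.1%, and for KLF letters (CCACNCCC) 19.5%, 16.1% and 18.1%. Over all windows the shares were 32.7%, 50.3%, 34.7%, 16.9% and 17.5% in the same order. Both strands were searched. The mean GC content was 46.8% in gained, 45.6% in lost and 47.6% in kept windows.

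**Figure D5:**
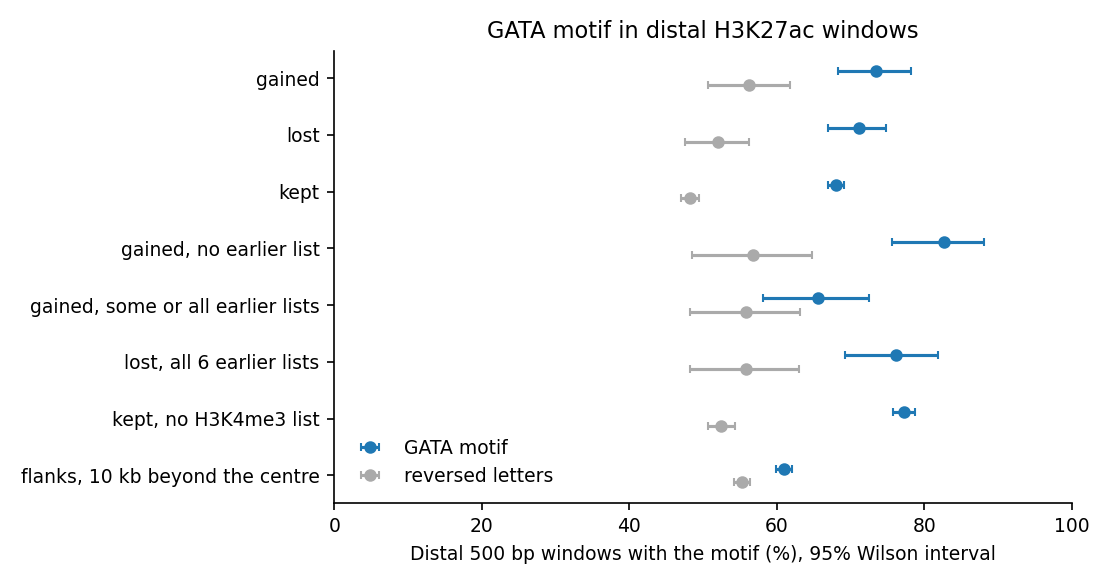
Share of distal 500 bp windows with a GATA motif (blue) or its reversed letters (gray), in percent with 95% Wilson intervals, for gained, lost and kept regions, subsets by earlier H3K27ac peaks or H3K4me3, and flanking windows. Gained regions with no earlier list sit at 82.7%, those with an earlier list at 65.6% and flanks at 61.0%. In 1000 bp windows, not shown, the gained sets without and with an earlier list were at 96.4% and 93.3%.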

How the data were processed

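ChIP-seq peak lists of H3K27ac at 12 and 24 h (2 replicates each) were analyzed, with the other 18 lists of the series as context. Per the study's methods, the authors used Bowtie2 with its defaults, retained reads with a unique position, and ran MACS on each library without its model step. The MACS version, control and threshold are not given in the sources used here. Each peak carries a score deposited by the authors. Its definition is not given in the sources used here, and it was used as a rank within a list. The labels name mm10 and also hg19. Of the peaks in the 4 lists, 42.3 to 44.1% contained a TSS (GENCODE M21, GRCm38, protein-coding genes), against 4.56 to 4.76% after a shift of 50 kb. Depth, and the precision it gives, are unknown because read counts are not part of the lists.

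Peaks were merged where they touched, and an overlap of 1 bp counted. One TSS per protein-coding gene was used. Shares have 95% Wilson intervals. Lengths were tested with limma (lmFit, eBayes with trend, Benjamini-Hochberg adjustment). On simulated data with 200 of 13220 regions changed by 1 log2 unit, the limma step recovered 69% of them for the comparison of 24 h with 12 h, and 5.48% of its calls were false. Real lengths can depart from the normal noise of that simulation.

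Named regions were the 10 highest-ranked gained and lost regions, every gained or lost region within 50 kb of a listed gene, the 5 called longer and shorter regions with the largest differences, the 5 highest gained and lost regions with a TSS, and genes with both kinds. Regions are named by the nearest TSS. The regions, gene lists and marker lists were chosen with earlier results of these data known. Alternatives were other score, merging and overlap settings, leaving out each list, other windows, and other limma fits. The replicates share numbers, and deviations of same-numbered lists correlated at -0.0386 to 0.0148 over the 10 pairs of times. Python 3.11.15, pandas 2.3.3, scipy 1.17.1, pysam 0.24.0, R 4.3.3 and limma 3.58.1 were used. Some regions and genes are not reported here.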

Additional observations from a re-analysis of the deposited data

How the results depend on the processing

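The settings for merging peaks within 500 bp, 50% coverage, equal list lengths, autosomes and X, a 1 kb distance, and, chosen after seeing the data, regions under 4 kb or without H3K4me3 in all 10 lists left gained and lost counts within 1.5 times of 337 and 561. At or above the pooled median score they were 91 and 251. Leaving out 1 list, which loosens the rule, gave 702 to 1190 gained and 1023 to 1457 lost regions. The share holding a TSS was 10.4% and 9.27% within 2 kb, and 40.7% and 25.5% at the pooled median score. The share with an earlier peak was 26.1% of gained and 78.6% of lost regions for both lists of an earlier time, and 100% and 99.2% at the pooled median score (minimum not set on the earlier lists).

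Called longer and shorter regions were 0 and 0 with 4 lists, 188 and 310 for regions in at least 2 lists, 4 and 21 for regions in all 4 lists, and 1 to 11 and 4 to 104 when 1 list was left out. With the replicate block they were 4 and 22. Of the regions named above, those of Pcgf3, Sfxn2, Rgs2, Prss34, Cd200r3 and Itga4 did not pass in that fit (limma adjusted p 0.0504 to 0.0842). The labels do not say what the replicate numbers mark. The weak correlations given above cannot show whether lists with the same number came from the same experiment. Listed genes within 20 kb numbered 4 gained (2.88%, all genes 1.3%) and 8 lost (5.76%, all genes 1.68%). As the nearest TSS they numbered 7 gained (5.04%, all genes 1.51%) and 9 lost (6.47%, all genes 2.41%). The GATA motif share was 94.7%, 90.4% and 87.9% of gained, lost and kept windows at 1000 bp, and 56.3%, 52.0% and 48.2% for reversed letters. Without read counts, a lost peak cannot be told apart from a peak that fell below the caller's threshold.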
